A study of Canis lupus familiaris with 42 samples.

Results

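Small heat shock proteins and their co-chaperone BAG3 were followed as 4 genes, CRYAB, HSPB8, HSPB1 and BAG3, among the 15115 genes that had a probe set annotated with their symbol alone. The genes were taken by name as members of one chaperone system, with earlier results of these data known. The number called among them is therefore a description and no test of the system. Each was read by its probe set with the highest mean level over the 42 arrays, and its other probe sets served as a check. All 4 were measured and no filter on low values was applied. CRYAB had 1 such probe set, BAG3 and HSPB1 had 2 each and HSPB8 had 3.

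Small heat shock proteins are chaperones that need no ATP. They share an alpha-crystallin domain, bind proteins that begin to unfold and hold them for refolding or removal. BAG3 is a stress-induced co-chaperone that links small heat shock proteins, HSPB8 above all, to HSP70 chaperones and steers their bound clients to selective autophagy. In human cells the heat shock factor HSF1 induces these genes when proteins unfold, and CRYAB, HSPB8 and BAG3 are also abundant in muscle without stress.

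The tumours were spontaneous sarcomas of dogs, with RNA from whole tumour tissue on Affymetrix canine arrays. One group held 21 samples taken after the first hyperthermia (heat) treatment, which was an adjuvant to radiotherapy, and the other held 21 samples of the same tumours taken before it, with no treatment. The labels give no breed, age, sarcoma type, interval between the samples or radiation dose, and no untreated tumour was sampled a second time, so effects of heat, radiation, time and the first biopsy cannot be told apart. Tumours are numbered 1 to 21, and the numbers are names only.

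Values are log2 levels from RMA, a method that removes background, brings arrays to one distribution and combines each probe set's probes into one value. Array medians ran from 5.20 to 5.31. By the level of the poly-A spike-in controls, which are bacterial RNAs added before labelling, the tumours fell into a high group of 9 (6.57 to 8.30) and a low group of 12 (3.36 to 5.28), called spike-in groups here, and no label names a cause for this. The contrast between 3′ and 5′ control probe sets of actin and GAPDH, a sign of RNA integrity, changed by 0.13 ± 0.44 on average (SD, n = 21), by 0.38 in the high and by -0.05 in the low spike-in group. Mesenchymal markers were high, with a list mean of 11.8 to 13.1 after and 11.95 to 13.1 before treatment. The 4 measured epithelial genes of 7 listed all had mean levels below the median probe set mean of 5.28, the highest at 4.24, and their list mean ran from 3.22 to 5.76 after and from 3.26 to 4.71 before treatment. Single tumours lay higher, with KRT8 up to 8.07 after and 7.37 before treatment and EPCAM up to 7.69 after and 5.87 before.

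CRYAB, BAG3 and HSPB8 rose after treatment, and HSPB1 did not pass the test. CRYAB was 2.21-fold higher on average, BAG3 1.70-fold and HSPB8 1.39-fold, while the mean of HSPB1 moved by 0.01 on the log2 scale. In a limma fit with the tumour as a block, 3 of the 4 genes were called higher and 0 lower, where a call is a p under 0.05 after Benjamini-Hochberg adjustment across the 42924 probe sets. In the same test 4.02% of the 15115 genes were called higher and 3.13% lower. In bulk tissue, more cells that hold a transcript and more transcript per cell cannot be told apart. The tumours also differed widely among themselves, which the plot of paired levels shows.

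**Figure D1:**
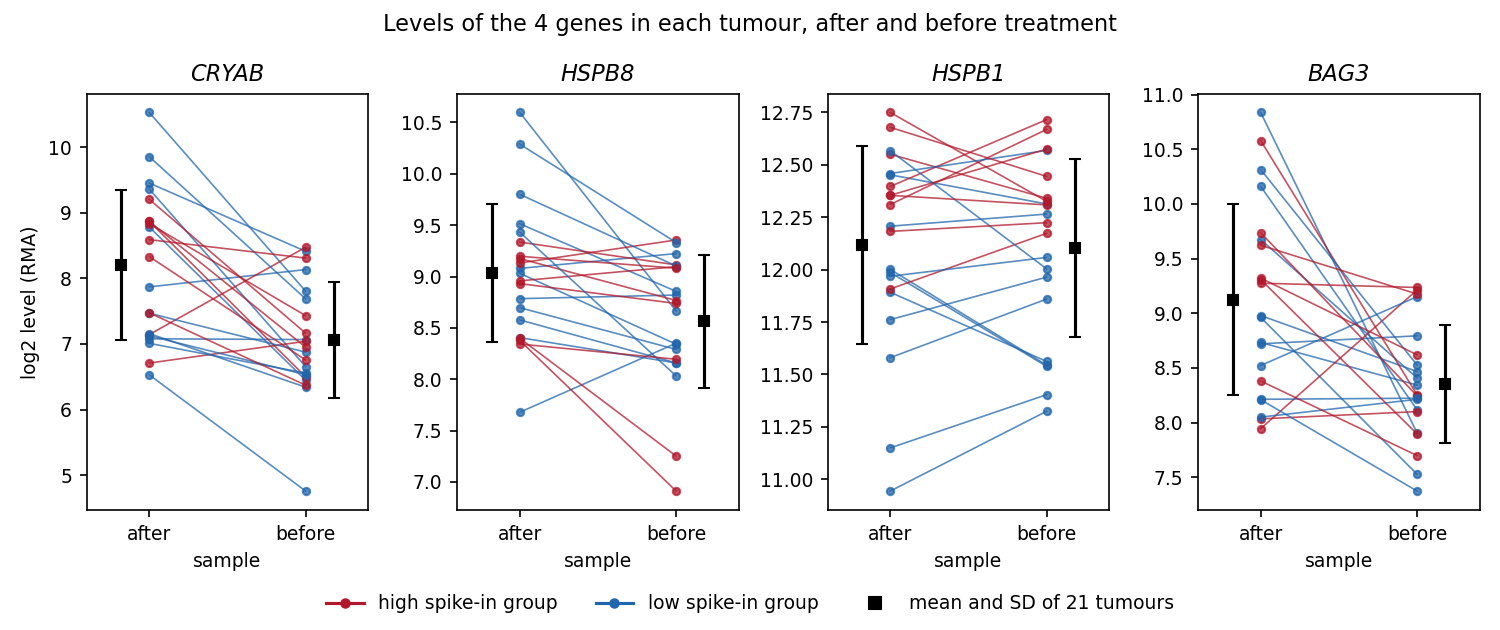
Log2 RMA level (vertical axis) of CRYAB, HSPB8, HSPB1 and BAG3 in 21 tumours, with each tumour's 2 samples joined by a line and after treatment on the left of each panel. Squares with bars are the mean and SD, colours give the spike-in group, and the vertical scale differs between panels. CRYAB and BAG3 reached levels after treatment that no tumour had before it in 10 tumours each, and the HSPB1 lines run both ways.

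BAG3, the scaffold of the system, had levels of 7.94 at the lowest, 8.98 at the median and 10.8 at the highest after treatment, against 7.37, 8.25 and 9.24 before it. In 10 of 21 tumours the level after treatment lay above the highest level before treatment, although the groups overlapped. The change was 0.77 ± 0.21 (SE, n = 21; limma adjusted p = 0.0265; 95% interval of the 21 changes 0.30 to 1.24), with 15 tumours higher and 6 lower. It was at least 2-fold upwards in 8 tumours. Tumour 7 had the largest rise, to 10.8 after against 7.90 before treatment (7.65-fold), followed by tumour 10 (5.02-fold) and tumour 1 (4.13-fold). Tumour 8 went the other way, with 7.94 after and 9.21 before treatment, a change of -1.27. The other BAG3 probe set gave 0.63 ± 0.18 (limma adjusted p = 0.0362), and the changes of the 2 probe sets had the same sign in 19 of 21 tumours.

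CRYAB encodes alphaB-crystallin, a small heat shock protein of the eye lens, muscle and many stressed cells. Its levels were 6.53 at the lowest, 8.33 at the median and 10.5 at the highest after treatment, against 4.76, 6.95 and 8.48 before it. The 2 ranges overlapped, with 10 of 21 tumours above the highest level seen before treatment. The change was 1.14 ± 0.22 (SE, n = 21; limma adjusted p = 0.00358; interval 0.64 to 1.65), and 18 tumours were higher. In 12 tumours the rise was at least 2-fold. The largest rises were in tumour 2 (10.5 after, 7.80 before; 6.62-fold) and tumour 1 (9.36 after, 6.65 before; 6.53-fold). CRYAB was lower in tumours 6 (-0.26), 8 (-1.33) and 9 (-0.33), and it was nearly level in tumour 5 (0.01). Its only probe set has a name ending in _s_at, which means that its probes can also bind related transcripts, so no second probe set could check it.

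HSPB8 encodes the small heat shock protein that binds BAG3 most directly. Levels were 7.68 at the lowest, 9.03 at the median and 10.6 at the highest after treatment, and 6.91, 8.74 and 9.36 before it. The groups overlapped more than for CRYAB or BAG3, since 5 of 21 tumours lay above the highest level before treatment. The change was 0.47 ± 0.13 (SE, n = 21; limma adjusted p = 0.0283; interval 0.18 to 0.76), with 16 tumours higher and 5 lower. Tumours 2 (3.82-fold), 18 (2.76-fold), 16 (2.64-fold) and 20 (2.22-fold) were the 4 that rose at least 2-fold, and tumour 17 had the largest fall (-0.67 on the log2 scale). The other 2 probe sets gave 0.46 ± 0.12 (limma adjusted p = 0.0242) and 0.40 ± 0.12 (limma adjusted p = 0.0466). Of these, the second lay higher in 14 tumours only, and in 4 of 9 tumours of the high spike-in group.

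HSPB1 encodes HSP27, an actin-binding small heat shock protein that many tumours make in quantity. Its levels were 10.9 at the lowest, 12.2 at the median and 12.8 at the highest after treatment, and 11.3, 12.2 and 12.7 before it. The groups lay almost wholly within the same range, and 1 tumour was above the highest level before treatment. The change was 0.01 ± 0.06 (SE, n = 21; limma adjusted p = 0.948), with 9 tumours higher and 12 lower. The interval of -0.13 to 0.15 bounds the mean change but not that of single tumours, which ran from -0.38 in tumour 5 to 0.56 in tumour 16. The other HSPB1 probe set, at a mean level of 10.8, gave 0.04 ± 0.08 (limma adjusted p = 0.862) with 11 tumours higher.

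The 3 calls did not hold in every setting. When the 5 tumours with a shift of over 0.5 in the 3′ to 5′ contrast were dropped, leaving 16, CRYAB changed by 1.06 (limma adjusted p = 0.0525), BAG3 by 0.81 (0.113) and HSPB8 by 0.38 (0.201). Taking the contrast into the fit as a covariate gave limma adjusted p = 0.0683 for BAG3 and 0.0639 for HSPB8, while CRYAB stayed called. A Wilcoxon signed-rank test on the changes, adjusted over all probe sets, gave p = 0.0697 for BAG3. The BAG3 call was lost without tumour 10 (adjusted p = 0.0526) or 16 (0.0506), and the HSPB8 call without tumour 16 (0.0538), 18 (0.0516) or 20 (0.0544).

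CRYAB, BAG3 and HSPB8 had positive mean changes in both spike-in groups, but no gene passed in a group alone. CRYAB changed by 1.004 ± 0.33 in the high group (7 of 9 tumours higher) and by 1.25 ± 0.26 in the low group (11 of 12). BAG3 changed by 0.64 ± 0.28 (7 of 9) in the high and 0.86 ± 0.26 (8 of 12) in the low group. For HSPB8 the changes were 0.37 ± 0.16 (7 of 9) and 0.55 ± 0.18 (9 of 12). HSPB1 changed by -0.03 ± 0.09 (4 of 9) and 0.05 ± 0.09 (5 of 12). In limma the adjusted p of the 4 genes ran from 0.115 to 0.889 in the high group, where 1.49% of genes were called higher, and from 0.145 to 0.900 in the low group. In the low group limma called 0% of genes, and 4989 of 42924 probe sets had an unadjusted p under 0.05. The change in the high minus that in the low group was -0.24 ± 0.45 for CRYAB, -0.22 ± 0.42 for BAG3, -0.18 ± 0.26 for HSPB8 and -0.08 ± 0.13 for HSPB1. The limma adjusted p of these differences ran from 0.928 to 0.946, in a test that called 0.00662% of genes, which is 1 gene.

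**Figure D2:**
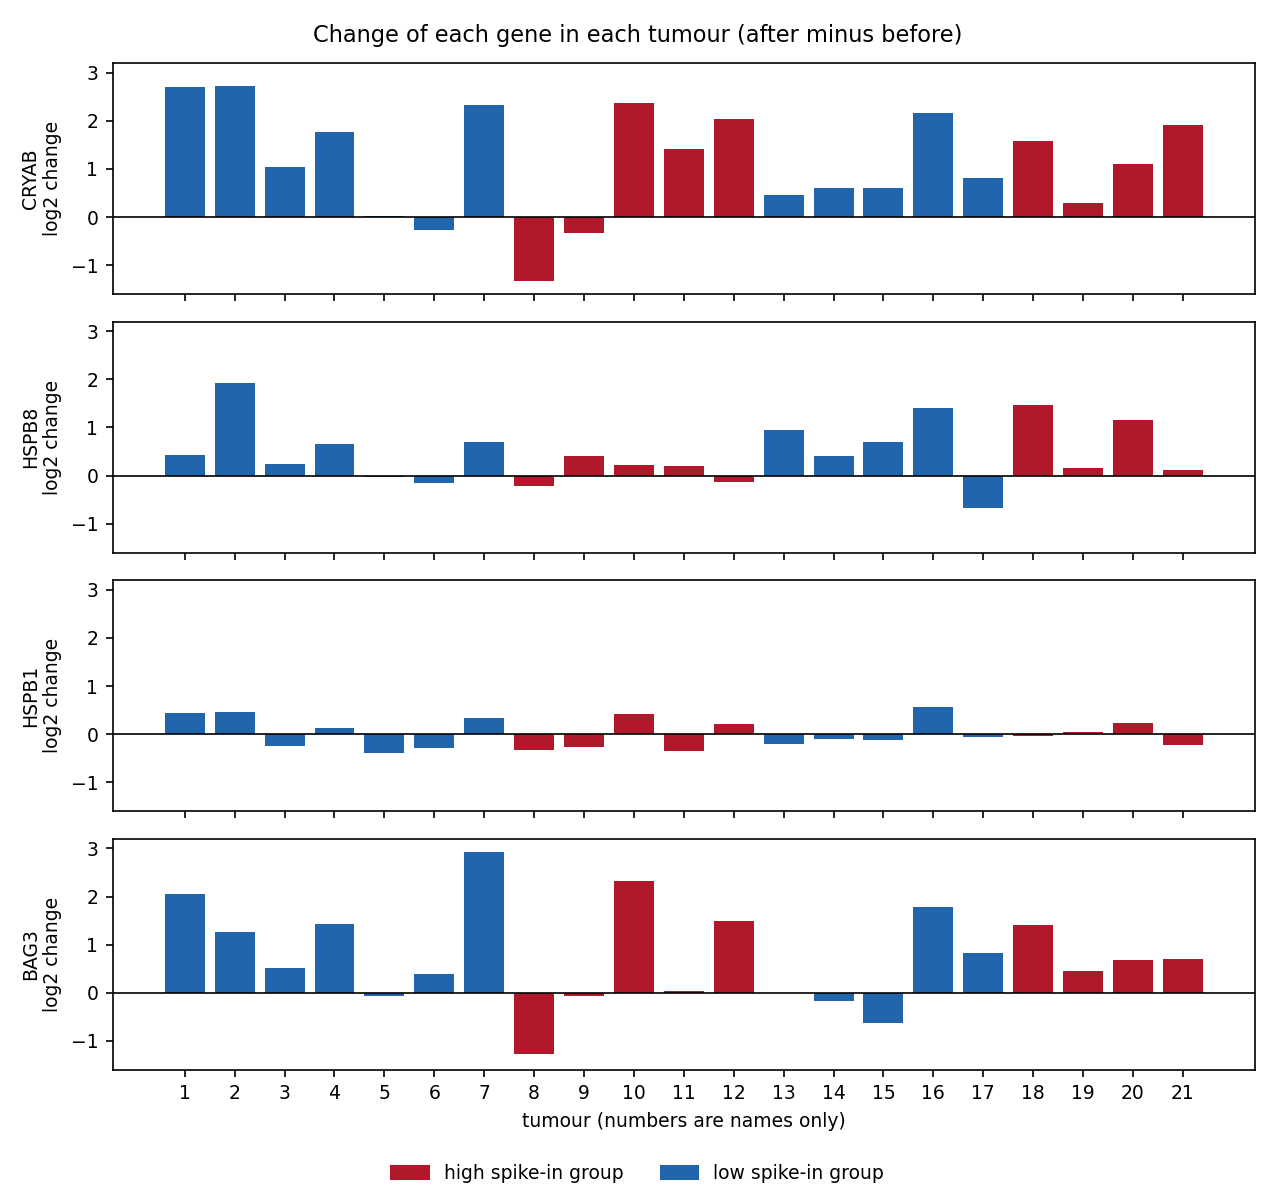
Log2 change, after minus before (vertical axis, the same in all panels), of the 4 genes in tumours 1 to 21 (horizontal axis), coloured by spike-in group. Tumours 1, 7, 10 and 16 are among the 5 largest rises of both CRYAB and BAG3, tumour 8 falls in both, and the HSPB1 bars stay between -0.38 and 0.56.

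The measured changes differed in size between genes within the same tumours. Differences between the changes of 2 genes were tested in 6 pairs with a two-sided sign-flip permutation test over the 21 tumours, adjusted over the 6. The change of CRYAB exceeded that of HSPB1 by 1.13 ± 0.20 (SE; 19 of 21 tumours; adjusted p = 0.00042), that of HSPB8 by 0.67 ± 0.22 (15 tumours; adjusted p = 0.00912) and that of BAG3 by 0.38 ± 0.13 (15 tumours; adjusted p = 0.0111). HSPB8 exceeded HSPB1 by 0.46 ± 0.12 (17 tumours; adjusted p = 0.00224). HSPB1 minus BAG3 gave -0.75 ± 0.18 (3 tumours with HSPB1 the larger; adjusted p = 0.00099). HSPB8 minus BAG3 was -0.30 ± 0.23 (adjusted p = 0.211, permutation test), with an interval of -0.77 to 0.18 that leaves room for a difference either way. These are differences of change, since levels of different probe sets are not comparable. Probe sets can also differ in how fully they register a change, and the 2 probe sets of BAG3 gave 0.77 and 0.63. The p-values refer to the variation over tumours only. The part of probe response in these differences was not tested.

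CRYAB and BAG3 moved together from tumour to tumour. Over the 21 tumours Pearson's r of their changes was 0.846 (permutation p = 1e-05, the smallest the resamples can give; adjusted p = 3e-05 over all 6 pairs of the 4 genes) and Spearman's rho was 0.857 (permutation p = 1e-05; adjusted p = 6e-05). Without tumours 2 and 8, the farthest from the median CRYAB change, r was 0.823. It was 0.878 in the high spike-in group (n = 9, exact permutation p = 0.00126) and 0.820 in the low group (n = 12, permutation p = 0.00134). The signs of the changes matched in 16 of 21 tumours. Both genes were at least 2-fold higher in 8 tumours, which were 1, 2, 4, 7, 10, 12, 16 and 18.

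HSPB8 and its partner BAG3 had no relation that passed the test. The r between their changes was 0.288 (permutation p = 0.206; adjusted p = 0.206) and rho was 0.265 (permutation p = 0.245). Without tumours 2 and 17 r was 0.316, and within the spike-in groups r was 0.303 (high, exact permutation p = 0.417) and 0.264 (low, permutation p = 0.409). Tumours 17 and 12 had BAG3 changes of 0.84 and 1.49 beside HSPB8 changes of -0.67 and -0.14. Tumours 13 and 15 had the opposite pattern, with HSPB8 changes of 0.96 and 0.70 and BAG3 changes of -0.01 and -0.63. Whether the CRYAB with BAG3 relation and the HSPB8 with BAG3 relation differ was not tested.

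HSPB8 and CRYAB gave an r of 0.447 (permutation p = 0.0416; adjusted p = 0.0499) and a rho of 0.427 (permutation p = 0.0546; adjusted p = 0.0655). This relation rests on tumours 2 and 8, without which r was 0.246 (permutation p = 0.312). It was 0.210 in the high spike-in group (exact permutation p = 0.612) and 0.608 in the low group (permutation p = 0.0357). All of CRYAB, HSPB8 and BAG3 were higher in 12 tumours, 2 of the 3 in 5 tumours, 1 in tumours 5, 6 and 9, and none in tumour 8.

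The relations of HSPB1 with the other genes are given as a description, with no p. Over the 21 tumours r of its change was 0.794 with BAG3, 0.770 with CRYAB and 0.5 with HSPB8. The rho was 0.790 with BAG3, 0.786 with CRYAB and 0.544 with HSPB8. With BAG3, r was 0.799 in the high and 0.790 in the low spike-in group. With CRYAB it was 0.555 in the high and 0.935 in the low group, and with HSPB8 it was 0.202 in the high and 0.637 in the low group. In all 9 tumours in which HSPB1 was higher, CRYAB and BAG3 were both higher too, against 5 of the 12 in which HSPB1 was lower. No p is given because a mixture model (mclust), run as a check for separate clusters, preferred 2 components to 1 for the HSPB1 changes by a BIC difference of 1.16. The components held 13 tumours from -0.38 to 0.05 and 8 tumours from 0.14 to 0.56, and no wide gap parted them, since the widest between neighbouring values was 0.11 of a range of 0.95. Within the components r with BAG3 was 0.423 (n = 13) and 0.325 (n = 8), and r with CRYAB was 0.285 (n = 13) and 0.641 (n = 8). The components were set on the HSPB1 change itself, which narrows its range, so these lower values do not show that HSPB1 was unrelated to the other genes.

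**Figure D3:**
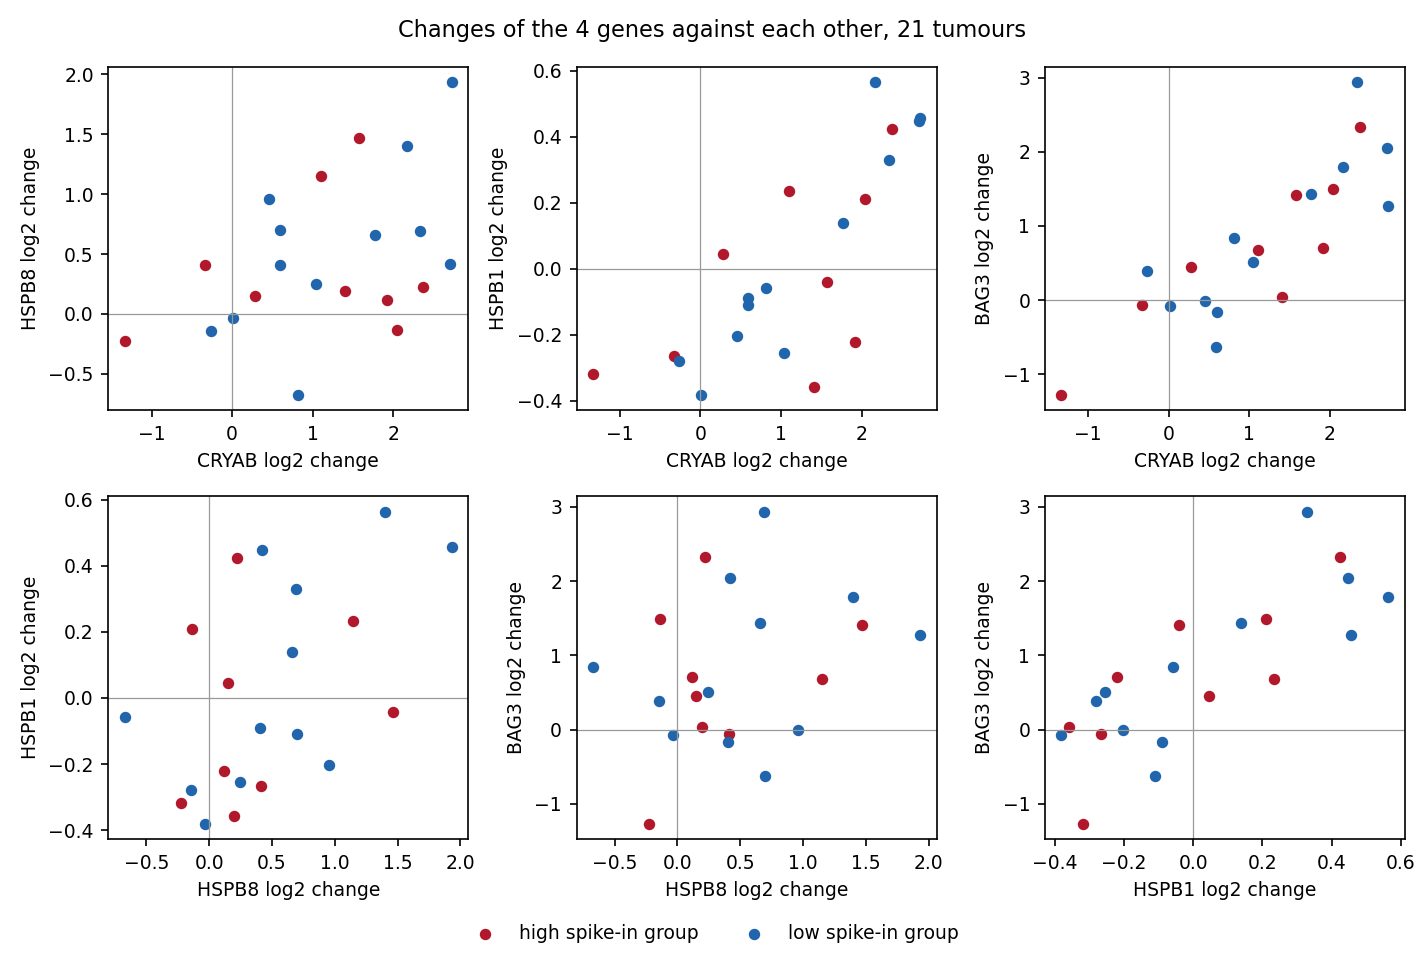
Log2 change of one gene against that of another in 21 tumours for all 6 pairs, with points coloured by spike-in group and scales that differ between panels. CRYAB against BAG3 forms the tightest line of the panels without HSPB1 (r = 0.846), HSPB8 against BAG3 a loose cloud (r = 0.288), and HSPB1 changes span a narrower range than the others.

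The genes most alike in change were then listed for each of the 4, as a description over the 21 tumours with no test. Likeness was Pearson's r of the change with 9177 other genes whose mean level exceeded the median probe set mean. For BAG3 the 5 closest were the gene annotated as HSP70 (r = 0.922), the inducible chaperone that BAG3 binds, then ZFAND2A (0.855), a zinc finger gene of the proteasome stress response, CRYAB (0.846), PPP1R15A (0.838), the phosphatase subunit GADD34, and HSPH1 (0.827), an HSP110 chaperone. For CRYAB they were HSP70 (0.893), ZFAND2A (0.856), CACYBP (0.854), BAG3 (0.846) and the glutamine transporter gene SLC1A5 (0.844). HSP70 had a mean change of 0.91 ± 0.29, but it did not pass (limma adjusted p = 0.0642; 15 of 21 tumours higher).

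For HSPB1 the closest gene of the 9177 was BAG3 (r = 0.794), followed by USPL1 (0.782), ANKRD39 (0.778), RCC1L (0.777) and FKBP4 (0.773), an HSP90 co-chaperone. CRYAB stood at rank 7 of that list, whereas HSPB8 stood at rank 361. HSPB8 had other neighbours, which were PACSIN3 (r = 0.734), TMEM192 (0.705), the glycolysis gene PFKP (0.681), KANK3 (0.667) and GOLM1 (0.658), a Golgi membrane protein gene. In the HSPB8 list HSPB1 stood at rank 91, CRYAB at rank 173 and BAG3 at rank 934. No chaperone gene was thus among the 5 closest to HSPB8.

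The spread over tumours was compared because the title of the series names heterogeneous responses. BAG3 had an SD of 0.87 after and 0.54 before treatment, a ratio of 1.62, and CRYAB an SD of 1.14 after and 0.88 before, a ratio of 1.30. HSPB8 (0.67 after, 0.65 before) and HSPB1 (0.47 after, 0.42 before) had ratios nearer 1. None passed the Pitman-Morgan test with swaps within tumours (permutation test, adjusted p = 0.14 for BAG3, 0.312 for CRYAB, 0.883 for HSPB8 and 0.703 for HSPB1), and for BAG3 the unadjusted p was 0.0349.

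None of the 7 other small heat shock proteins measured passed the test. Of 8 listed family members 7 were measured, and limma called 0 higher and 0 lower, with a median change of -0.03 against 0.007 over all genes. Over all genes 4.02% were called higher and 3.13% lower, so 0 of 7 does not set this family apart. Of the 7 genes, 3 had a mean level above the median probe set mean. HSPB2, which lies beside CRYAB in the RefSeq gene order of the UU_Cfam_GSD_1.0 assembly, had a change of 0.05 ± 0.07 (limma adjusted p = 0.746), with levels of 6.44, 7.14 and 8.18 (lowest, median, highest) after and 6.48, 7.02 and 8.37 before treatment. HSPB3, a muscle small heat shock protein, had a change of -0.34 ± 0.12 (limma adjusted p = 0.0958) and 7 of 21 tumours higher. Its other probe set gave -0.23 ± 0.14 (plain SE of the 21 changes) with 8 tumours higher. By the chosen probe set, the HSPB3 level differed widely between tumours, from 4.34 to 8.52 after and from 4.71 to 9.49 before treatment. HSPB6, which is abundant in smooth and striated muscle, gave -0.22 ± 0.17 (limma adjusted p = 0.536). The testis gene ODF1 and the lens gene CRYAA lay at mean levels of 4.43 and 4.25 after and 4.45 and 4.21 before treatment, below the median probe set mean. HSPB11 was not analysed here.

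In the BAG family 2 of the 5 genes listed beside BAG3 were called higher and 0 lower, beside 4.02% and 3.13% of all genes. BAG1, an exchange factor of HSP70 that can carry clients to the proteasome, had levels of 6.59, 7.40 and 8.52 (lowest, median, highest) after and 6.19, 6.97 and 7.89 before treatment. The groups overlapped, while 18 of 21 tumours were higher (0.39 ± 0.08, limma adjusted p = 0.00592). BAG2, which holds back the ubiquitin ligase CHIP, was higher in 17 tumours, with levels of 4.29, 4.87 and 7.55 after and 3.76, 4.55 and 6.63 before treatment (0.46 ± 0.09, limma adjusted p = 0.00296). BAG2 thus lay near or below the median probe set mean of 5.28 in most tumours, and it had 1 probe set. The second BAG1 probe set had a smaller mean change of 0.13 ± 0.06 (plain SE of the 21 changes; 14 tumours higher). BAG4 (0.07 ± 0.06), BAG5 (-0.03 ± 0.05) and BAG6 (-0.001 ± 0.05) did not pass (limma adjusted p from 0.59 to 0.993).

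None of the partners and clients of BAG3 passed the test. Of 20 listed partners and clients 19 were measured, and limma called 0 of them in either direction, with a median change of 0.02 and single changes between -0.14 and 0.15. Over all genes 4.02% were called higher and 3.13% lower, so 0 of 19 does not set this list apart. HSPA8, the constitutive HSP70 of the complex, had a change of 0.015 ± 0.12 (limma adjusted p = 0.967), and STUB1, which encodes the ligase CHIP, one of 0.03 ± 0.04 (limma adjusted p = 0.806). The autophagy receptor gene SQSTM1 gave 0.15 ± 0.07 (limma adjusted p = 0.202) with 14 tumours higher. SYNPO2 of the same list went the other way, with -0.14 ± 0.06 (limma adjusted p = 0.15) and 17 tumours lower. Its median levels of 4.86 after and 4.93 before treatment lay below the median probe set mean. VPS16, of the complex that brings vesicles to the lysosome, had the smallest p of this list (0.15 ± 0.05, limma adjusted p = 0.0845), and MAP1LC3B, which marks autophagosomes, gave -0.13 ± 0.05 (limma adjusted p = 0.125). Their other probe sets had smaller mean changes (plain SE of the 21 changes). Those of VPS16 gave 0.09 ± 0.04 and 0.085 ± 0.04. Those of MAP1LC3B gave -0.07 ± 0.05 and -0.04 ± 0.06, with 11 and 9 tumours higher. Filamin C, a client in muscle, is encoded by FLNC, whose change was 0.06 ± 0.10 (limma adjusted p = 0.815). The heat shock factors HSF1, HSF2 and HSF4 and the factor-binding protein gene HSBP1 were all measured, and 0 of 4 were called, with changes of 0.04 ± 0.05 for HSF1 and 0.06 ± 0.05 for HSF4 (limma adjusted p = 0.74 and 0.602). At an unadjusted limma p under 0.05, HSPB3, SQSTM1, SYNPO2, MAP1LC3B, WIPI1 and VPS16 would join BAG1 and BAG2 among these 35 genes. That share of 22.9% stands beside 19.4% of all 42924 probe sets at the same threshold. Most of the 35 genes lay above the median probe set mean. In a fit of the 21462 probe sets above it, 5829 had such a p, a larger share than either.

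**Figure D4:**
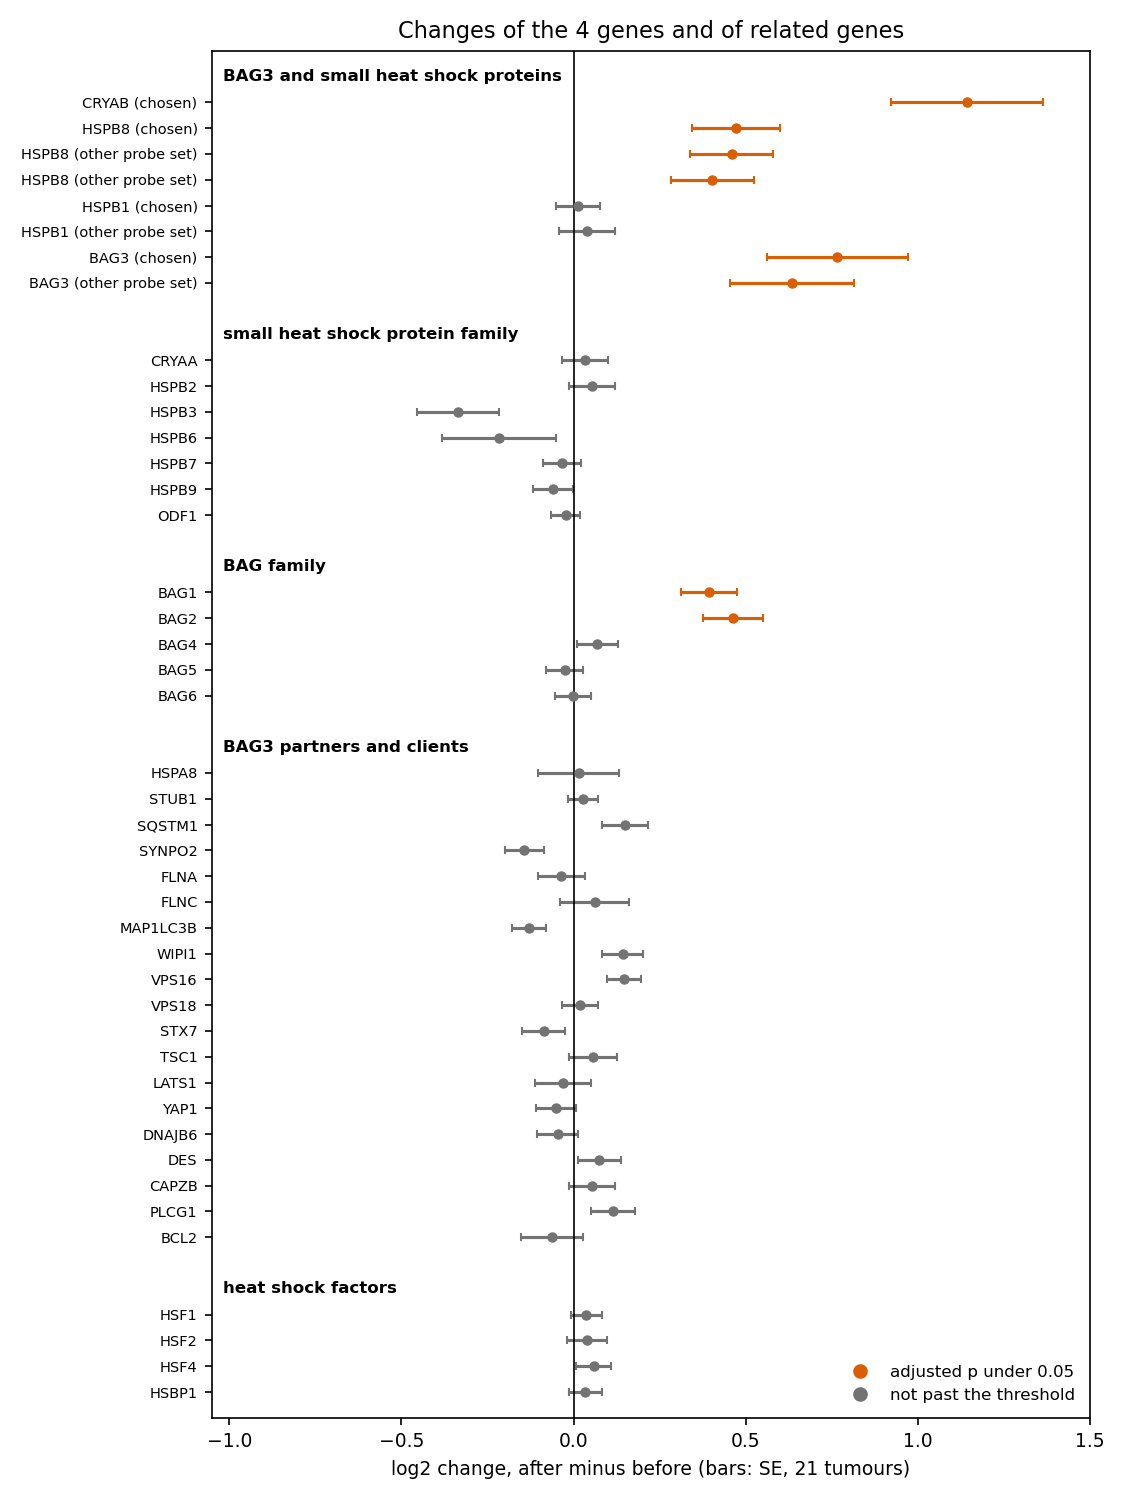
Mean log2 change, after minus before, with its SE over 21 tumours (horizontal axis) for each probe set of the 4 genes and for 35 genes of 4 related lists (vertical axis), where orange marks an adjusted p under 0.05. All probe sets of CRYAB, HSPB8 and BAG3 and the genes BAG1 and BAG2 are orange, and the partners of BAG3 lie between -0.14 and 0.15.

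Markers of other cells were read beside these changes, since muscle holds much CRYAB, HSPB8 and BAG3. Over all genes limma called 4.02% higher and 3.13% lower, which stands beside each count here. Of 14 skeletal muscle genes 13 were measured, and 0 were called. Their list mean ran from 4.46 to 5.81 after and from 4.48 to 5.11 before treatment, higher in 13 of 21 tumours, and 3 of the 13 genes had a mean level above the median probe set mean. Single tumours moved more. MYH2 changed by 3.40, MYLPF by 2.92 and TNNC2 by 2.78 in tumour 8, while TNNC2 changed by -2.46 and MYLPF by -1.77 in tumour 19. Smooth muscle and pericyte genes (8 of 8 measured), nerve sheath genes (5 of 7) and adipocyte genes (6 of 6) had 0 called as well, with median changes of 0.02, -0.04 and -0.02. Of the 7 mesenchymal genes 1 was called lower (SPARC, -0.28 ± 0.08, limma adjusted p = 0.0476) and 0 higher, with a median change of -0.11 and a list mean higher in 8 of 21 tumours. Among macrophage genes 2 of 6 were called higher and 1 lower, and their median change of 0.41 was the largest of these lists. MARCO changed by 1.86 ± 0.30 (limma adjusted p = 0.00117), MSR1 by 0.52 ± 0.13 (0.0151) and CSF1R by -0.49 ± 0.15 (0.0466). The macrophage list mean was higher in 14 of 21 tumours, with 6.64 to 8.72 after and 6.08 to 8.86 before treatment. The part of muscle, of mesenchymal cells and of macrophages in the changes of the 4 genes was not tested.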

How the data were processed

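RNA from 42 samples of 21 sarcomas was measured on Affymetrix canine arrays. The authors made the values by RMA in Affymetrix Expression Console, per the submitters' processing notes, which name no release. They are deposited as log2 levels of 43035 probe sets, of which 111 are controls and were not tested. Gene names came from the platform annotation, where 29254 probe sets hold a single symbol. Precision is set by the number of tumours, which is 21.

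The treatment label gave the groups and the tumour code in each title gave the pairs. After removal of group means, all arrays correlated best with the partner from their own tumour (21 of 21). The series design mentions 22 tumours, and 21 were analysed here. Whether each tumour came from a separate dog is not stated, and the p-values refer to the variation among these 21 tumours alone.

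Limma 3.58.1 in R 4.3.3 was run on all probe sets with the tumour as a block, two-sided. Intervals are 95% t intervals of the 21 changes. Permutation tests drew 100000 resamples, or all arrangements for fewer than 10 tumours, and mclust 6.1.1 tried up to 3 components. Spike-in groups were split at the widest gap in the mean of 36 poly-A control probe sets (5.75). Other steps ran in Python 3.11.15 with SciPy 1.17.1. The scripts were tested on simulated data.

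The 4 genes and the lists were chosen with earlier results of these data known. Named by rule were the 4 genes, the genes of the related lists that passed, the 2 with the smallest p per list and the 5 most alike in change to each of the 4. The remaining genes named from the lists were picked with their values in view. Alternatives were other fits, normalisations, filters, probe sets and tests, each spike-in group alone, and fewer tumours. Applying them to the related lists was added after seeing the data.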

Additional observations from a re-analysis of the deposited data

How the results depend on the processing

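Adjusted limma p-values stand in parentheses. Without the block, CRYAB changed by 1.14 (0.198), HSPB8 by 0.471 (0.759) and BAG3 by 0.767 (0.277), so all 3 calls rest on the pairing of samples by tumour, and 12 genes were called higher and 0 lower against 608 and 473 with it. Contrast as a covariate gave 0.439 (0.0639) for HSPB8 and 0.666 (0.0683) for BAG3, with 410 and 311 genes called. In the 16 tumours with a contrast change within 0.5, CRYAB gave 1.06 (0.0525), HSPB8 0.38 (0.201) and BAG3 0.806 (0.113), with 132 and 155 genes called. Fewer tumours enter that fit and the fits by spike-in group. In the high group alone CRYAB gave 1 (0.115), HSPB8 0.371 (0.215) and BAG3 0.641 (0.231), with 225 and 274 genes called. In the low group alone they gave 1.25 (0.145), 0.547 (0.261) and 0.861 (0.24), with 0 and 0 called, and 4989 probe sets with an unadjusted p under 0.05. A random block called 531 and 266 genes, and the 3 genes stayed called. The Wilcoxon test gave BAG3 a median change of 0.683 (adjusted p = 0.0697). HSPB1 turned sign, without a call, with array weights (-0.00559), renewed quantile normalisation (-0.00943), the covariate (-0.0178), the high group (-0.0323) and the Wilcoxon median (-0.0578). Of the 2 related genes called, 0 passed without the block, 0 in the high and 0 in the low group, 1 among probe sets above the median level, where BAG2 is not tested, and 1 (BAG2) in the 16 tumours. In the high group, differences of change no longer passed the permutation test: CRYAB minus HSPB8 was 0.633, CRYAB minus HSPB1 1.04, CRYAB minus BAG3 0.363, HSPB8 minus HSPB1 0.404 and HSPB1 minus BAG3 -0.673 (adjusted p from 0.141 to 0.169). In the low group only CRYAB minus BAG3 was lost (0.385, adjusted p = 0.0735). The relation of CRYAB and HSPB8 failed as rho (0.427), without tumours 2 and 8 (0.246), in the high group (0.21) and on mean probe sets (0.387). Leaving out each tumour in turn gave 1.06 to 1.27 for CRYAB, 0.398 to 0.529 for HSPB8, 0.658 to 0.869 for BAG3 and -0.0146 to 0.0327 for HSPB1. It gave 0.341 to 0.509 for the relation of CRYAB and HSPB8, whose call was lost in 12 of 21 such fits, and 0.882 to 1.25 for the HSPB8 ratio of SDs. VPS16 passed without tumour 13 (0.0345). Causes of these shifts were not tested.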
